A study of Oryza sativa with 3 samples.

Results

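Chlorophyll breakdown in the rice leaf was represented by 3 genes: SGR (stay-green, LOC4347672), NYC1 (non-yellow coloring 1, LOC4327178) and NOL (NYC1-like, LOC4333604). They were found by searching the array's gene annotation, through RefSeq symbols and synonyms, for 6 names, and the other 3 names (NYC3, PAO and NAP) had no match, so those genes were not analysed here. The 3 genes have 5 probe sets among 57194 non-control probe sets, or 3 of the 17905 genes that the annotation names singly. SGR has the probe sets Os.11666.1.S1_at and Os.11666.1.S1_s_at, NYC1 has Os.18818.1.S1_a_at, and NOL has Os.17490.1.A1_at and Os.17490.2.A1_a_at.

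The samples form 1 group: leaves of the japonica cultivar Kitaake, harvested at an age of 6 weeks from the greenhouse, with 3 replicates grown at the same time and 1 Affymetrix rice array for each. No treatment, genotype or stage was varied, so what can be asked is whether each gene was detected and how its level varied among replicates. The labels do not say how many plants went into a replicate or which leaf was taken, so part of the spread may be technical, and leaf age within the group is unknown. Leaf RNA was measured in bulk, so fewer cells of a type and less RNA per cell cannot be told apart. All values are log2 signals. A probe set was counted as above background where it exceeded, on every array, the 95th percentile of that array's 64 reporter probe sets, which lay at 5.64, 5.60 and 5.77 for replicates 1, 2 and 3. All 7 leaf markers with probe sets were above background, and so were 2 of 3 meristem, 2 of 3 root, 2 of 3 seed and 1 of 4 anther markers, so most markers of the first 3 other organs also gave signal. Among the meristem markers FON1 (8.84 ± 0.25, SD, n = 3) and WOX4 (6.10 ± 0.08) were above it and OSH1 (3.25 ± 0.10) was below. The seed markers GLB (9.96 ± 0.17) and GLUA-2 (9.46 ± 0.13) were above it, and GLUA-1 (3.58) was below. The root markers LSI1 (9.10 ± 0.15) and IRT1 (7.96 ± 0.47) were above it, and LSI2 (4.30 ± 0.19) was below. The anther marker above it was MSP1 (8.26 ± 0.19). The part of such signal in the values below was not tested.

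Green leaves hold chlorophyll a and chlorophyll b bound to antenna proteins, and a senescing leaf takes both apart. Chlorophyll b is converted back to chlorophyll a in successive reductions, of which chlorophyll b reductase, built in rice from NYC1 and NOL, carries out the first and the enzyme HCAR the next, and SGR removes the central magnesium of chlorophyll a. Plants that lack SGR or NYC1 function stay green while their leaves age, because antenna proteins and pigment are retained. Later steps open the ring (PAO) and reduce the red product (RCCR1), while CAO runs the chlorophyll cycle the other way by making chlorophyll b.

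All 3 genes gave signal in these leaves. The 5 probe sets were all above background on every array, as were 47.1% of all probe sets, and 3 of 3 genes had at least 1 such probe set, against 75.9% of all genes. The smallest margin over the bound was 1.27, for SGR in replicate 3. None of the 5 spanned 2-fold between arrays, and 0.972% of all probe sets did. Because probes differ in how strongly they bind, the levels of different genes are not ranked against each other.

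SGR was the member whose signal differed most between the replicates. Its probe set Os.11666.1.S1_at had signals of 7.72 in replicate 1, 7.48 in replicate 2 and 7.03 in replicate 3. Replicate 3 was the lowest and replicate 1 the highest, and the mean was 7.41 ± 0.35 (SD, n = 3). The range of 0.69 on the log2 scale is a 1.61-fold difference. Among the 2859 probe sets of like mean signal, that is, in the same of 20 equal bins, the median SD was 0.12, and 6.68% had an SD at least as large as SGR. In the same bin 3.11% had a value in replicate 3 as far below the mean of the other replicates, which for SGR was a difference of -0.57. The spread rested partly on replicate 3: without it the SD was 0.17, against 0.31 without replicate 1 and 0.49 without replicate 2.

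The other SGR probe set, Os.11666.1.S1_s_at, had 9.80 in replicate 1, 9.81 in replicate 2 and 9.60 in replicate 3. It too was lowest in replicate 3, but replicates 1 and 2 were nearly level, and the difference of replicate 3 from their mean was -0.21. Its mean was 9.74 ± 0.12 (SD, n = 3), and 31.5% of probe sets of like signal had an SD as large. Without replicate 3 its SD was 0.01. The suffix _s_at marks, in Affymetrix naming, probes that can match transcripts of more than 1 gene, and whether this set reads SGR alone was not tested. The probe sets therefore put SGR lowest on the same array and differed in size, by 0.69 and 0.22 from the highest to the lowest array. As a mean of both probe sets SGR was at 8.76, 8.65 and 8.31 in replicates 1, 2 and 3.

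NYC1, the membrane-bound subunit of chlorophyll b reductase, was close to constant. Its probe set had 12.29 in replicate 1, 12.26 in replicate 2 and 12.23 in replicate 3, a mean of 12.26 ± 0.03 (SD, n = 3). The whole range was 0.07, or 1.05-fold, and 71.9% of probe sets of like signal had an SD as large. The suffix _a_at is used for probes that match alternative transcripts of 1 gene, and the RefSeq table lists 1 transcript for NYC1.

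NOL, the partner subunit, was flatter still as deposited. When the columns were quantile-normalised again the order reversed, with an SD of 0.06 for its standing probe set against 0.03 for NYC1. Os.17490.1.A1_at had 9.54, 9.54 and 9.55 in replicates 1, 2 and 3, with the first pair equal to every deposited digit. Os.17490.2.A1_a_at had 7.67, 7.68 and 7.67, with replicates 1 and 3 equal. Their SDs, 0.0004 and 0.0043, were exceeded or met by 93.2% and 88.1% of probe sets of like signal. Ties occur widely in these values: 47.7% of all probe sets were equal on replicates 1 and 2, and 24.2% on all 3 arrays. At like signal fewer were equal on all 3 arrays, 6.68% in the bin of Os.17490.1.A1_at and 11.1% in that of Os.17490.2.A1_a_at. Neither NOL probe set was equal on all 3. The cause of the ties was not tested, and an SD near 0 is not taken here as a measure of how precisely NOL was measured. The probe sets of NOL differed in level by 1.87 on the log2 scale although they report the same gene, for which the RefSeq table lists 2 transcripts.

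**Figure D1:**
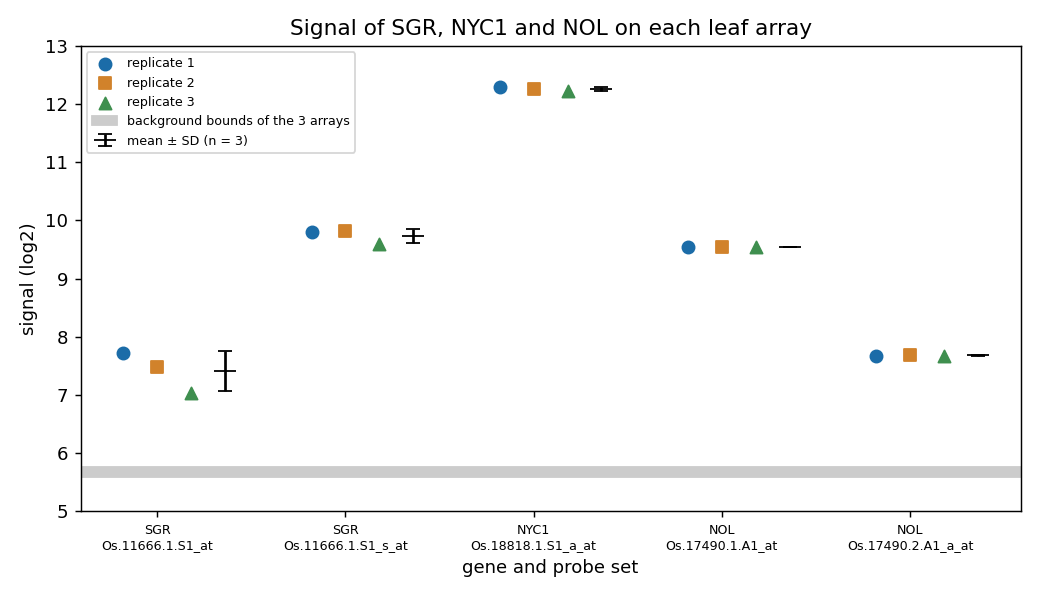
Log2 signal (vertical axis) of the 5 probe sets of SGR, NYC1 and NOL on the arrays of replicates 1, 2 and 3, with the mean ± SD over 3 arrays in black and the range of background bounds (5.60 to 5.77) as a grey band. SGR is lowest in replicate 3 in both of its probe sets (7.03 and 9.60), while NYC1 and NOL lie almost level.

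**Figure D2:**
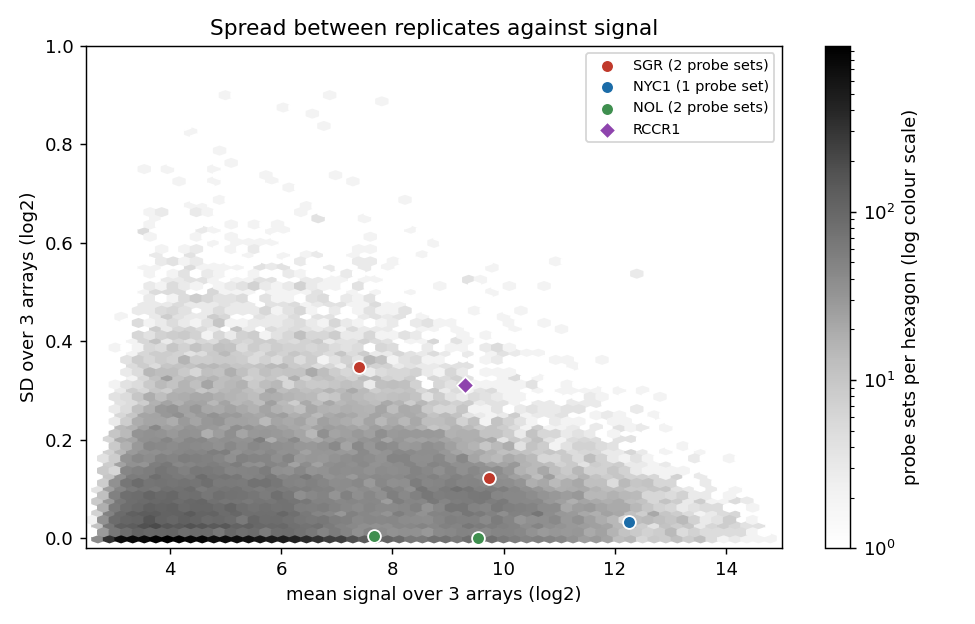
SD over 3 arrays against mean log2 signal for 57194 probe sets, as grey hexagons on a log colour scale, with the probe sets of SGR, NYC1 and NOL as circles and RCCR1 as a diamond; SDs above 1 (44 probe sets) are off the axis. SGR at 7.41 and RCCR1 at 9.30 lie in the upper part of the cloud, and NOL lies on its floor.

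Replicate 3 was lower than both other replicates in 3 of the 5 probe sets (both of SGR and that of NYC1), as it was in 34.5% of all probe sets. For NYC1 the lowest replicate, and for NOL the size of the replicate 3 difference, depended on the scaling. As deposited, replicate 3 of NOL differed from the mean of replicates 1 and 2 by only 0.0007 and -0.0037. When the columns were quantile-normalised again, replicate 3 of NYC1 was at 12.24, no longer the lowest since replicate 2 was also at 12.24 and just below it. The NOL probe sets were then higher in replicate 3, by 0.10 and 0.11 above the mean of replicates 1 and 2. That scaling raised replicate 3 relative to the others by a median of 0.10 to 0.11 in the signal bins of SGR and NOL and by 0.04 in that of NYC1. SGR stayed lowest in replicate 3 under it, with differences of -0.48 and -0.11. Its probe sets were then the only 2 of the 5 that were lower in replicate 3 than in both others, as were 50.1% of all probe sets. Centring each array on its median left every value as deposited, because the medians were already equal.

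Controls on the arrays also differed between replicates. The poly-A spike transcripts, which are added to the RNA before labelling, were measured by 36 probe sets. Replicate 2 lay above replicate 1 by a median of 0.25, and replicate 3 lay below both others in 21 of the 36 and below their mean in 35 (median difference -0.19). Of the 27 hybridization control probe sets, 14 were lower in replicate 3 than in both others. The contrast of the 5′ over the 3′ actin control was -2.13, -2.24 and -2.63 in replicates 1, 2 and 3, while that of GAPDH ran only from -1.45 to -1.43. The part of these differences in the SGR values was not tested.

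A further search for chlorophyll breakdown and the chlorophyll cycle used 24 names and found 4 genes: RCCR1, CAO, CHLG and THF1. Since CHLG is chlorophyll synthase and THF1 a thylakoid formation protein, the list is wider than the steps of breakdown. All 4 were above background on every array, as were 74.3% of all genes by the probe set that stands for each. RCCR1 (LOC4348519), the reductase of red chlorophyll catabolite near the end of the pathway, had 9.61 in replicate 1, 8.98 in replicate 2 and 9.32 in replicate 3. Its lowest replicate was therefore 2 and not 3, its range was 1.54-fold, and 3.36% of probe sets of like signal had an SD as large as its 0.31. The first SGR probe set and RCCR1 shared their highest array, replicate 1, and not their lowest.

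The gene LOC4349433 is called CAO here, the oxygenase that makes chlorophyll b and so opposes NYC1 and NOL, but the RefSeq table also gives it the synonym Lls1, a name used in maize for PAO, and which enzyme it encodes was not checked. It was at 12.33, 12.38 and 12.33 in replicates 1, 2 and 3. Its range was 1.04-fold, and that of NYC1 was 1.05-fold. CHLG (LOC4338498), chlorophyll synthase, which attaches the tail of chlorophyll, ranged over 1.08-fold around 10.64 ± 0.06 (SD, n = 3). THF1 (LOC4343584), the thylakoid formation protein whose loss also gives a stay-green leaf in rice (the nyc4 mutant), was at 12.51, 12.74 and 12.69. Replicate 1 was its lowest, also in its _s_at probe set (12.78 against 13.01 and 12.91) and in a remaining probe set near background (5.79, 5.88 and 6.15).

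For the antenna proteins, which bind the chlorophyll that is broken down, 2 genes were found of 22 names searched. The mRNA of LHCP (LOC4333359) had a signal of 14.50 ± 0.01 and CAB2R (LOC4324599) one of 14.10 ± 0.03 (SD, n = 3 each). The highest value on any array was 14.78, so a small spread here may not show a steady level, and whether the scale compresses differences at such signals was not tested.

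**Figure D3:**
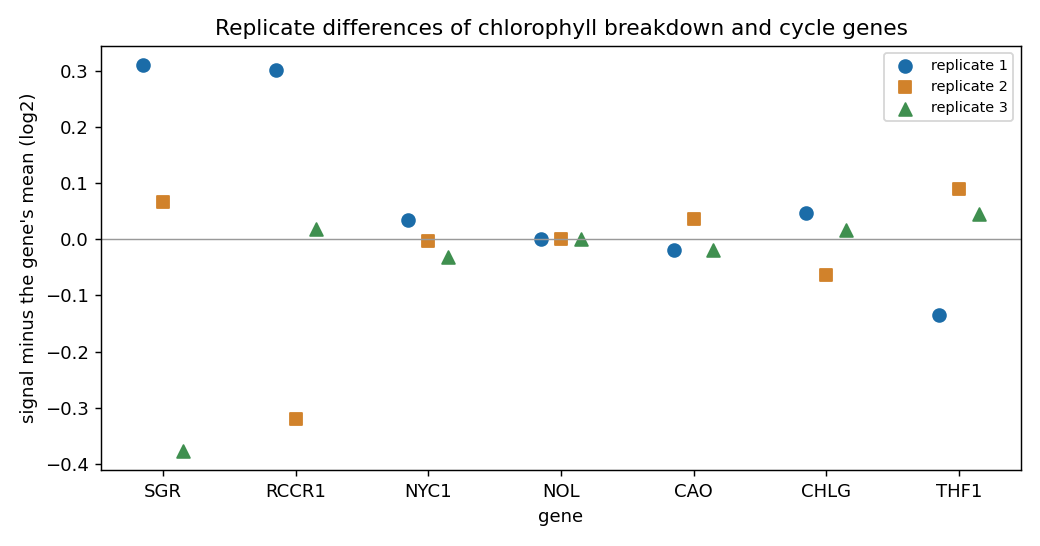
Signal of each replicate minus the mean over replicates (log2, vertical axis) for the standing probe set of SGR, RCCR1, NYC1, NOL, CAO, CHLG and THF1. SGR and RCCR1 spread over 0.69 and 0.62 and are lowest in different replicates, while NYC1, NOL, CAO and CHLG stay within a range of 0.11.

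Regulators linked to leaf senescence were searched by 57 names, of which 20 genes had probe sets and 18 were above background. Of the 20, 12 were lower in replicate 3 than in both others and 2 were higher, against 49.3% lower and 17.4% higher over all genes. After a second quantile normalization 10 of the regulators were lower and 6 higher, against 44.9% and 37.6% of all genes. Their median difference was -0.05, against -0.04 over all genes. By the probe set that stands for each gene, the regulators with the largest spread were NAC5 (LOC4349963), a NAC transcription factor, and CKX11 (LOC4345764), an enzyme that breaks down cytokinin, the hormone that delays senescence. NAC5 had 9.96 in replicate 1, 10.20 in replicate 2 and 9.49 in replicate 3, with its lowest value on the same array as SGR. Its dimmer probe sets were instead highest in replicate 1 and equal in replicates 2 and 3, at 6.31 in both for its _x_at probe set.

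CKX11 had 10.35, 10.09 and 9.70 in replicates 1, 2 and 3, the same order of arrays as the first SGR probe set. Its other probe set lay near background at 5.75, 5.75 and 5.84. PRR37, a pseudo-response regulator named after its values were seen, had a second probe set with a larger SD (0.61), at 8.58, 7.89 and 7.36 in replicates 1, 2 and 3, while its standing probe set was at 11.93, 11.88 and 11.90. GI, the clock gene GIGANTEA, was at 13.34 on every array, and EIL1A, a factor of ethylene signalling, at 12.84 ± 0.05 (SD, n = 3). The second probe set of EIL1A was highest in replicate 3, at 6.79 against 6.39 and 6.09.

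Of the genes associated with senescence and nutrient remobilization, 14 were found for 46 names and 12 were above background, against 74.3% of all genes. In replicate 3, 7 of the 14 were lower than in both others and 3 higher (49.3% and 17.4% of all genes), and 8 were lower and 5 higher after a second quantile normalization (44.9% and 37.6%), so the share lower was close to that over all genes as deposited. OSL2 (LOC4336983), named for its rise in senescing rice leaves, had 9.17, 9.05 and 8.75 in replicates 1, 2 and 3. It was lowest in replicate 3, by -0.36 from the mean of the others, and 12.9% of probe sets of like signal had an SD as large. ICL, the glyoxylate cycle enzyme isocitrate lyase, was below background on every array at 5.13, 5.47 and 4.78. GLN2, the plastid glutamine synthetase of green leaves, was at 13.66 ± 0.06, though its second probe set was at 8.75 in replicate 2 against 9.60 and 9.77. PPDKB, a pyruvate phosphate dikinase, was at 12.07 ± 0.12 (SD, n = 3). SAG12, named after its value was seen as a gene bearing the name of a widely used senescence marker, was at 5.94, 5.94 and 6.15, just above the bound on every array.

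Some FtsH and Clp proteases take part in turnover of plastid proteins, and the 12 genes found by name were all above background. Their location in the plastid was not checked, so they are not read here as a plastid set. Of the 12, 9 were lower in replicate 3 than in both others and 0 were higher (49.3% and 17.4% of all genes), with a median difference of -0.17 against -0.04 over all genes. After a second quantile normalization 8 were lower and 2 higher (44.9% and 37.6% of all genes), with a median of -0.12 against -0.01. The 9 that were lower were the FtsH genes, and CLPC1, CLPC2 and CLPD1 differed by 0.01 or less. FTSH6 (LOC4340563) had the largest spread, at 6.79 in replicate 1, 6.72 in replicate 2 and 6.06 in replicate 3. Its _x_at probe set was lowest in the same replicate (7.05, 6.75 and 6.31). FTSH4 followed at 9.18, 9.05 and 8.74, and FTSH3 at 6.47, 6.77 and 6.40. FTSH2 and FTSH1 were at 13.61 ± 0.11 and 12.99 ± 0.09 (SD, n = 3 each), and FTSH5, FTSH7, FTSH8 and FTSH9 differed in replicate 3 by -0.10 to -0.19. The _s_at probe set of FTSH9 was instead lowest in replicate 2, at 10.89 against 11.16 and 11.06.

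Of 7 autophagy genes, which serve the delivery of leaf proteins to the vacuole, 6 were above background, against 74.3% of all genes. In replicate 3, 4 were lower than in both others and 1 was higher (49.3% and 17.4% of all genes), but after a second quantile normalization 2 were lower and 4 higher (44.9% and 37.6%), so the direction was not settled. ATG8C and ATG8B, proteins that coat the autophagosome, were at 12.73 ± 0.03 and at 11.52 on every array. ATG4A, a protease that processes ATG8, spread most, at 8.46, 8.28 and 8.11, and ATG4B was at 9.98 ± 0.05. ATG5 and ATG12, which are joined to each other during autophagosome growth, were at 8.02 ± 0.06 and 8.64 ± 0.09, and ATG8D was below background at 4.61 ± 0.13 (SD, n = 3 each).

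**Figure D4:**
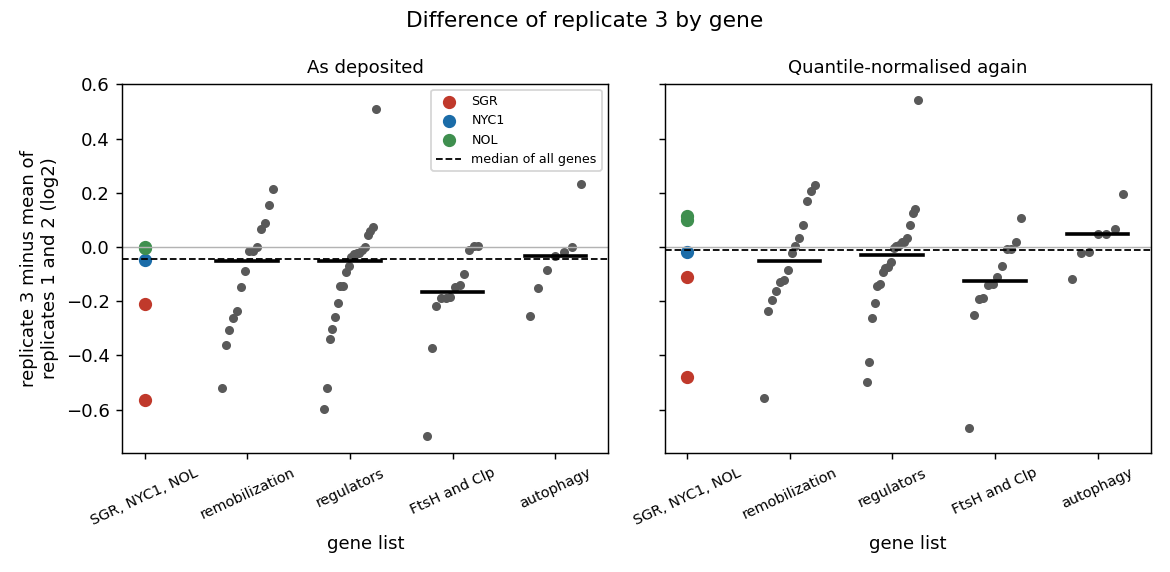
Signal in replicate 3 minus the mean of replicates 1 and 2 (log2, vertical axis) for each probe set of SGR, NYC1 and NOL and each gene of 4 lists, as deposited (left) and quantile-normalised again (right), with black bars for list medians and a dashed line for the median of all genes (-0.04 and -0.01). The SGR points lie below 0 in both panels, whereas NOL moves to 0.10 and 0.11 and the autophagy median changes sign.

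Genes whose values over the 3 arrays were nearest to those of the SGR probe set Os.11666.1.S1_at were sought. The search covered 1896 genes with a published name and a signal above background. The other SGR probe set was not used as a target. Likeness was the root-mean-square difference over 3 arrays after each probe set's own mean was subtracted. The nearest were CIPK21, a CBL-interacting protein kinase, at 0.01, NRAMP3, a metal transporter, at 0.01, and PIP2-4, an aquaporin, at 0.02. CIPK21 had 6.54, 6.31 and 5.88 in replicates 1, 2 and 3, NRAMP3 had 8.33, 8.07 and 7.61, and PIP2-4 had 9.32, 9.10 and 8.62. Such likeness was common: 623 of 26933 probe sets above background (2.31%) lay within 0.1 of SGR, nearer than the second probe set of SGR itself, at 0.20. NYC1 and NOL lay 0.26 to 0.28 away.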

How the data were processed

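The authors deposited log2 signals per probe set for 3 arrays. Per the submitters' processing notes the tool was RMA; no version or setting is given in the sources used here. RMA as usually run corrects background, quantile-normalises arrays and summarises probes by median polish. The column medians were equal (5.63). Of 57381 rows, 187 controls and reporters were set aside; 22436 probe sets had 1 gene symbol, 95 several and 34663 none. All 17905 genes matched a RefSeq table of assembly ASM3414082v1 by gene identifier, used for names only. A gene with several probe sets was represented by one ending neither _x_at nor _s_at, with the highest mean.

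With 1 group there was no test; values are mean ± SD over 3 arrays. The members, gene lists and background bound were chosen with earlier results of these data known, by names alone, and 2 name matches to unrelated genes (PGL1 and GRF4) were removed. Named genes were all members, every gene of lists with at most 12, and otherwise the 2 highest means and 2 largest SDs, plus the 3 genes nearest SGR. The ranking by likeness recovered 200 of 200 planted probe sets in simulated data of 57194 probe sets. The planted pattern was strong and its noise small, and the other probe sets varied independently without ties, so recovery was easy. It checks the calculation only and does not show how reliable the 3 genes nearest SGR are in these data. Alternatives were a second quantile normalization, median centring, other background bounds, probe-set averages and leaving out each replicate. Python 3.11.15, numpy 2.4.6 and pandas 2.3.3 were used. No sequences are shown.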

Additional observations from a re-analysis of the deposited data

How the results depend on the processing

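Of 63 alternative values, 58 moved by less than the spread between replicates, or by less than 1.5 times for counts. Some of the 58 could not move. Median centring left every value as deposited, and NYC1 has 1 probe set, so averaging probe sets could not change it. The 58 also include every alternative for the median SD, which was not stable (below), so the count is not a measure of robustness. The order of the arrays for NYC1 and NOL changed with a second quantile normalization. All 5 probe sets and all 3 genes stayed above background, and 0 spanned 2-fold, under every alternative run for them: a second quantile normalization, median centring, each replicate left out and, for background, the 90th percentile or the highest reporter as the bound. Most of these could not undo the counts. Leaving out a replicate cannot widen a range or add an array to pass. The 90th percentile cannot raise the bound, and median centring changed nothing. Only the second quantile normalization and the highest reporter as the bound could have changed these counts. The 5 that moved were values of SGR or NOL. As a mean of probe sets SGR was at 8.57 and NOL at 8.61, against 7.41 and 9.55 for the standing probe sets. The SD of NOL was 0.06 after a second quantile normalization, 0 without replicate 3 and 0.0020 as a mean of probe sets. The 3 genes nearest to SGR were the same by the largest difference on any array. The median SD over the 5 probe sets, 0.03, was not stable: it was 0.01 without replicate 3, 0.02 without replicate 1, 0.05 without replicate 2, 0.02 without the _s_at probe set of SGR and 0.07 after a second quantile normalization. Leaving out the _s_at probe set of SGR was chosen after seeing the data. No paired analysis was possible because there is only 1 group. The number of arrays, 3, and the many tied values limit what an SD can show.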
